A study of Drosophila melanogaster with 48 samples.

Results

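The 4 libraries of ribosome-bound astrocyte RNA collected late in the subjective day were compared with the 4 collected late in the subjective night. They are 8 of the 24 libraries of the series and were chosen by time alone, at 8 h and 32 h in constant darkness (DD) for late day and at 20 h and 44 h for late night, each in 2 biological replicates. All flies carried eaat1-Gal4, elav-Gal80 and UAS-EGFP-L10a, so that a tagged large subunit protein entered ribosomes mainly in astrocytes, and all had been entrained to a light-dark cycle before DD. The labels separate late-day from late-night flies by time of collection. The titles also carry a series letter, whose meaning is not given. It is a for the 8 h, 32 h and 44 h libraries of replicate 1 and b for its 20 h library, while in replicate 2 all 4 libraries share their letters, so the part of the series in the 20 h values of replicate 1 was not tested. Ribosomes were pulled down from pooled heads with an antibody to EGFP (translating ribosome affinity purification, TRAP). The eaat1-Gal4 driver is also active in some cortex glia, elav-Gal80 is there to silence it in neurons, and the replicates came from independent crosses. The libraries are pools of heads, so a smaller number of cells of one type and less RNA per cell cannot be told apart.

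In the fly clock, CLOCK and CYCLE drive period (per), timeless (tim), vrille (vri) and Par domain protein 1 (Pdp1), and PER and TIM later shut their own transcription down. As a rule per and tim RNA is low in the first part of the day and high early in the night, while Clk and cryptochrome (cry) RNA runs in roughly the opposite phase. Astrocytes take up and break down transmitters, supply neurons with fuel and express innate immunity genes, and glia of the fly contain clocks of their own.

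Late-day libraries held between 10214600 and 31941800 counts on genes and late-night libraries between 7138010 and 32826700. They showed 10601 to 13863 and 10576 to 13136 genes with at least 1 count. Reads with more than 1 alignment were 25.8% to 33.7% of the tally in replicate 1 and 3.92% to 5.21% in replicate 2, so the values of close paralogs may differ between replicates for that reason alone. Reads that fell on overlapping genes were 4.47% to 6.20%. The first principal component of the 8 libraries held 68.3% of their variance and did not follow the phase, with the 32 h library of replicate 2 and both 20 h libraries at one end and the 44 h library of replicate 2 at the other. The files identify genes by FlyBase number only, and symbols could be paired with 1779 of the 9392 genes tested (18.9%). Most of these names came from tables that the study ordered by its own test of rhythm on the same samples, so named genes are not a neutral sample of all genes. The gene lists below cover only members with a symbol, in no case the whole list. Of the astrocyte transcripts that the paper names, Gabat had 120, 117, 129 and 92.6 CPM (counts scaled to library size) in late-day libraries. In late-night libraries Gabat had 143, 104, 113 and 58.3 CPM. Another of them, ebony (e), had 24.7 to 41.7 CPM in late-day libraries and 22.5 to 55.5 CPM in late-night libraries. Eaat2 is in the astrocyte and glia list used below but is not among the astrocyte genes that the paper names. It had 26.8 to 38.8 CPM in late-day libraries and 24.7 to 39.4 CPM in late-night libraries. Gat, Eaat1, alrm, Gs2 and repo were not analysed here.

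No gene passed the test between late day and late night. In edgeR's quasi-likelihood test with the biological replicate as a block, 0 of 9392 genes (0%) had a Benjamini-Hochberg adjusted p under 0.05, and the smallest adjusted p was 0.139. An unadjusted p under 0.05 was reached by 192 genes higher in late day (2.04%) and 197 genes higher in late night (2.1%), 389 in all (4.14%), against 469.6 that this threshold gives by its own definition. Single libraries moved that count, which was 183 without the 8 h library of replicate 1 (81 higher in late day and 102 in late night), 239 without the 32 h library of replicate 1 (131 and 108) and 661 without the 44 h library of replicate 2 (258 and 403), and 284 to 481 without any of the other 5. Other settings moved the count further. It was 1305 without the 32 h and 44 h libraries of replicate 2 (687 and 618). In limma voom with library weights it was 1148 (686 and 462), and both settings were added after the data were seen. It was 953 in replicate 1 alone (426 and 527), 89 in replicate 2 alone (62 and 27), 1525 on the first day alone and 75 on the second. Among the 1779 genes with a symbol the shares in the edgeR test on all 8 libraries were 6.58% and 6.63%. The median log2 difference over all genes was -0.01, the median SE 0.27, and the biological coefficient of variation 0.503. DESeq2 called 50 genes on the same counts, 18 higher in late day and 32 higher in late night, while limma on quantile normalized counts called 0 and limma voom with library weights called 16. Every gene named below missed the edgeR threshold, and the values describe these 8 libraries. For genes picked by their p here, groups that do not overlap follow in part from that choice and add no further support.

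**Figure D1:**
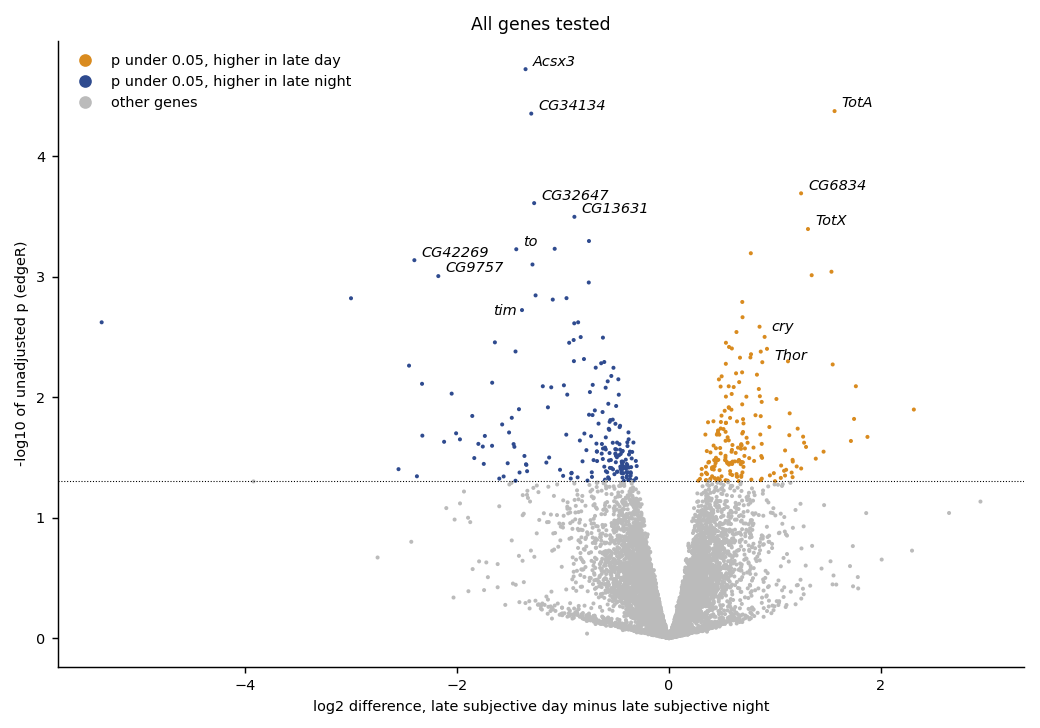
Each point is 1 of 9392 genes, placed by its log2 difference (late subjective day minus late subjective night, x axis) and the -log10 of its unadjusted edgeR p (y axis), with the dotted line at 0.05. The 192 orange genes were higher in late day and the 197 blue genes higher in late night, and TotA, Acsx3 and CG34134 lie highest, each with an adjusted p of 0.139.

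Values per library are given below in a fixed order, as 8 h replicates 1 and 2 and 32 h replicates 1 and 2 for late day, then 20 h replicates 1 and 2 and 44 h replicates 1 and 2 for late night. All are CPM with TMM scaling, and log2 differences are late day minus late night.

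Turandot genes, which encode small secreted proteins induced by stress and infection, stood out on the late-day side. TotA had 146, 108, 103 and 87.5 CPM in late-day libraries, against 38.8, 41.1, 42.7 and 27.2 CPM in late-night libraries. All 4 late-day libraries lay above all 4 late-night ones, with means of 111 ± 24.7 and 37.5 ± 7.0 CPM (SD, n = 4 each). The log2 difference was 1.56 ± 0.21 (SE), a fold of 2.96, with an unadjusted p of 4.2e-05 and an adjusted p of 0.139. TotX had 84.6, 51.2, 59.6 and 31.5 CPM in late-day libraries, against 24.7, 20.6, 30.5 and 14.6 CPM in late-night libraries. These groups did not overlap either, although the 32 h library of replicate 2 exceeded the 44 h library of replicate 1 by about 1 CPM. TotC had 21.8, 25.5, 33.1 and 17.2 CPM in late-day libraries and 21.6, 13.5, 22.6 and 9.61 CPM in late-night libraries, which overlapped. Of 8 listed Turandots 3 had a symbol here. All 3 had an unadjusted p under 0.05, against 6.58% of genes with a symbol and 2.04% of all genes higher in late day. Their median log2 difference was 1.31. The paper reports TotA, TotC and TotX as rhythmic in these same samples, so the named members are not a neutral sample of the family. TotA lies on chromosome arm 3R from 20871036 to 20871700 and TotX on the same arm from 20904917 to 20905518 (Release 6), and they are paralogs.

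Of the other late-day genes of lowest p, Akr1B, an aldo-keto reductase, had 221, 130, 153 and 72.2 CPM in late-day libraries, against 52.0, 51.5, 59.0 and 54.1 CPM in late-night libraries. Its late-night libraries were close together and its late-day libraries were widely spread. The gene phu had 28.6, 17.9, 41.7 and 26.3 CPM in late-day libraries, against 10.2, 11.8, 12.3 and 4.86 CPM in late-night libraries. CG6834 had 32.3, 33.9, 33.8 and 26.7 CPM in late-day libraries, against 17.6, 10.4, 17.8 and 9.38 CPM in late-night libraries. These 3 genes had log2 differences of 1.35 ± 0.29, 1.53 ± 0.32 and 1.25 ± 0.20 (SE), none with overlapping groups. Esyt2, an extended synaptotagmin of contacts between endoplasmic reticulum and plasma membrane, lute and CG10863 had smaller log2 differences of 0.69, 0.85 and 0.64, also with groups that did not overlap. CG5793 and a gene without a symbol here, FBgn0004057, were higher in late day in all 4 pairs of libraries matched by day and replicate, but replicate 1 lay above replicate 2 in both phases, so that their groups overlapped. Their log2 differences were 0.77 ± 0.16 and 0.69 ± 0.16 (SE).

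On the late-night side the smallest p belonged to Acsx3, an acyl-CoA synthetase family gene on 3R from 19781246 to 19783145. Acsx3 had 35.8, 42.4, 38.4 and 45.4 CPM in late-day libraries, against 91.8, 121, 109 and 91.0 CPM in late-night libraries. The highest late-day library and the lowest late-night library were far apart, and the log2 difference was -1.35 ± 0.16 (SE), a fold of 2.56, with an unadjusted p of 1.9e-05 and an adjusted p of 0.139. CG34134 (2L, 8190297 to 8190781) had 10.8, 13.03, 9.83 and 13.7 CPM in late-day libraries, against 31.0, 31.9, 27.0 and 25.5 CPM in late-night libraries. Its groups were as well separated, with a log2 difference of -1.30 ± 0.17 (SE) and an adjusted p of 0.139. CG13631 had 98.1, 133, 112 and 128 CPM in late-day libraries, against 189, 284, 200.4 and 203 CPM in late-night libraries. The 20 h library of replicate 2 stood above the other 3 late-night libraries of CG13631.

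Several late-night genes of lowest p have known roles in metabolism and signalling. Cyp4d21, the cytochrome P450 also known as sex-specific enzyme 1, had 10.4, 24.2, 14.3 and 14.5 CPM in late-day libraries, against 39.9, 33.0, 37.4 and 40.7 CPM in late-night libraries. The takeout gene (to), a clock-controlled gene of feeding behavior, had 3.42, 4.52, 2.92 and 4.58 CPM in late-day libraries, against 12.2, 10.9, 9.47 and 8.69 CPM in late-night libraries. Both had groups well apart, with log2 differences of -1.29 ± 0.26 and -1.44 ± 0.21 (SE). Nepl18, a neprilysin-like peptidase gene, had 23.6, 20.9, 17.3 and 28.6 CPM in late-day libraries, against 50.6, 56.0, 43.8 and 39.96 CPM in late-night libraries. CG3376, a predicted sphingomyelin phosphodiesterase gene, had 36.7, 43.7, 44.1 and 45.8 CPM in late-day libraries, against 62.4, 74.3, 75.5 and 75.3 CPM in late-night libraries. Spread within the groups of CG3376 was small, and its log2 difference of -0.76 ± 0.15 (SE) was among the smaller ones of this set. CG42269 and CG9757 were weakly detected in late day, at 0.451 to 1.1 and 0.504 to 1.20 CPM, and had 3.24 to 3.77 and 3.17 to 4.00 CPM in late night. Their log2 differences of -2.40 ± 0.26 and -2.18 ± 0.25 (SE) were the greatest of the 20 genes. CG32647 was the only one of the 10 late-night genes with overlapping groups, since replicate 2 lay above replicate 1 in both phases (12.8, 20.6, 14.8 and 28.5 CPM in late day, 25.9, 58.7, 30.4 and 82.6 CPM in late night).

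**Figure D2:**
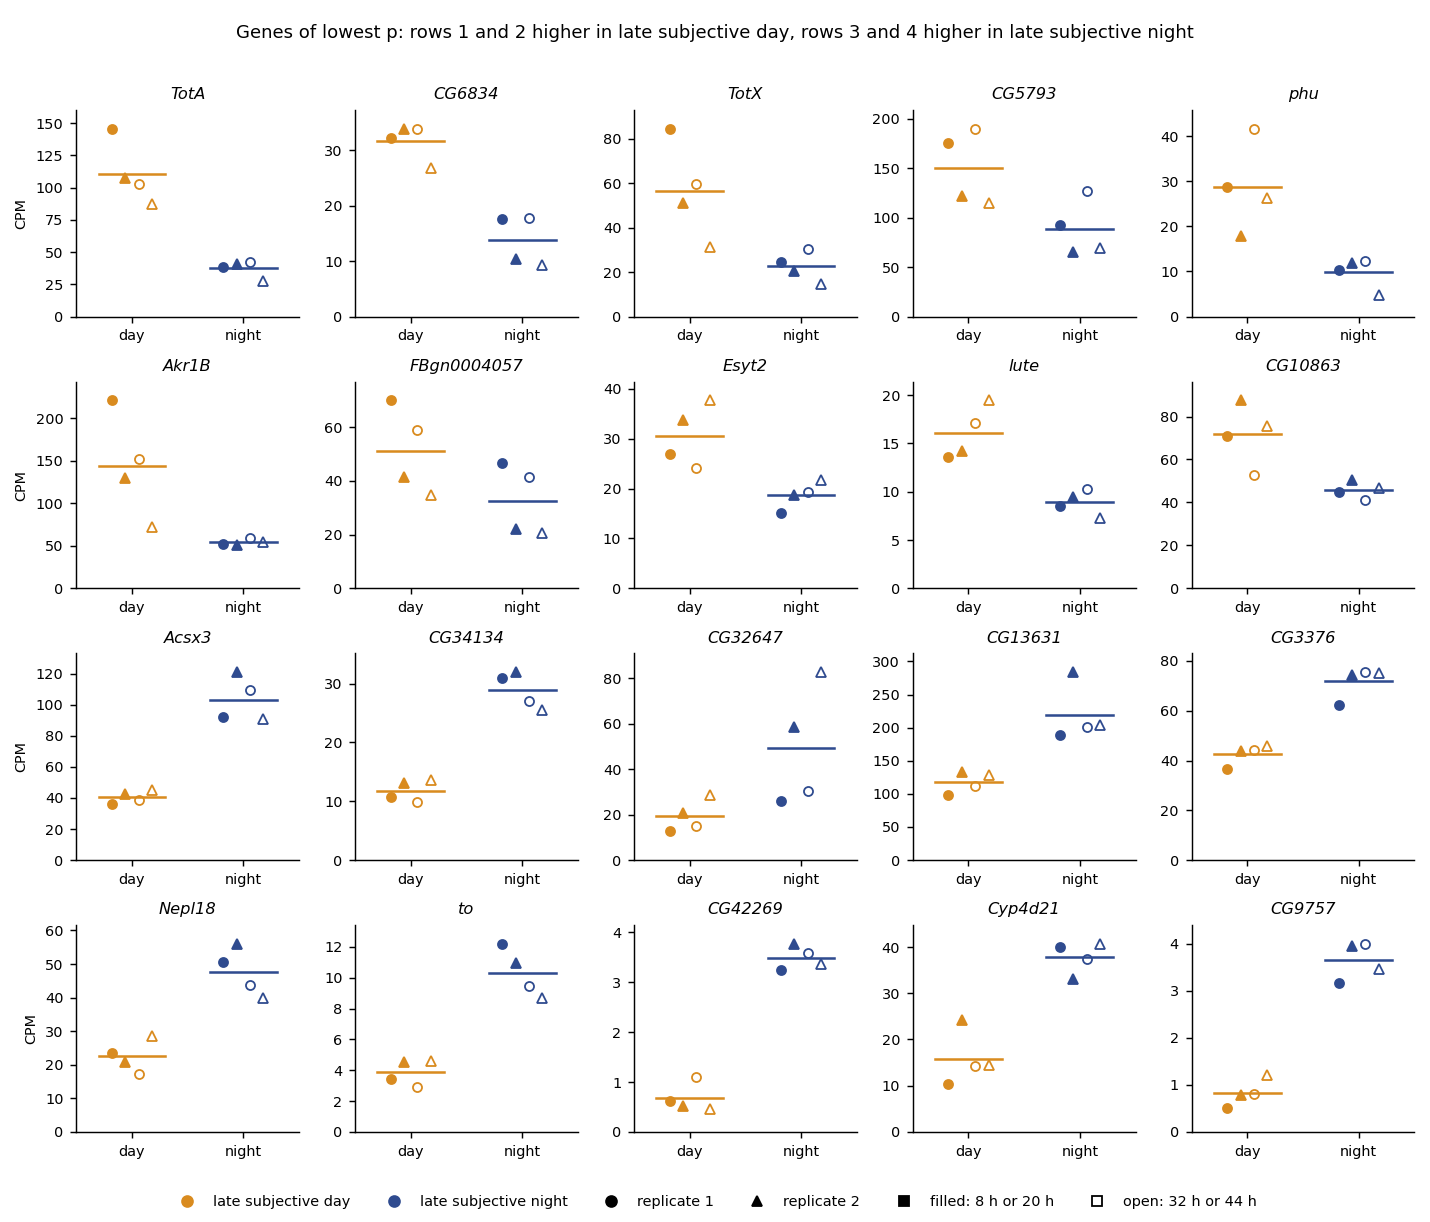
CPM (y axis, from 0) of the 10 genes of lowest p in each direction, with late subjective day left and late subjective night right in each panel, circles for replicate 1, triangles for replicate 2, filled points for the first day in DD, open points for the second and lines for the means of 4 libraries. Groups do not overlap for 17 of the 20 genes, the exceptions being CG5793, FBgn0004057 and CG32647, which follows in part from their choice by p on these libraries.

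Groups that do not overlap were found for 105 genes with late day above late night (1.12%) and 91 genes with late night above late day (0.969%) of the 9392. Of the genes with a symbol 7.64% had groups that do not overlap. All 4 matched pairs ran the same way for 657 genes higher in late day (7%) and 575 genes higher in late night (6.12%). Outside the 20 genes above, Achl, the gene Achilles, known as a clock-controlled gene that dampens immune gene expression, was picked after its values were seen. Achl had 2.76, 4.26, 0.332 and 1.35 CPM in late-day libraries, against 15.6, 19.6, 14.7 and 17.3 CPM in late-night libraries. The libraries of the 2 phases lay far apart, with a log2 difference of -3.0 ± 0.70 (SE), an unadjusted p of 0.0015 and an adjusted p of 0.692.

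The 16 libraries at other times give a measure that did not enter the choice of these genes. The 0 h libraries among them stood in for the dawn after 44 h, which was not sampled, so they adjoin no late-night library in time. Libraries at 4, 12, 28 and 36 h (day side, 8 libraries) were compared with those at 0, 16, 24 and 40 h (night side, 8 libraries), and again 0 of 9392 genes passed (0%), with an unadjusted p under 0.05 in 220 genes higher on the day side (2.34%) and 326 higher on the night side (3.47%). The lean to the night side was not stable, since these counts were 501 and 364 without the 0 h libraries and 185 and 202 without both 28 h libraries and the 16 h library of replicate 1. The 28 h library of replicate 2 had 49.6% of its counts in 10 genes. Of the 10 late-day genes, 8 were higher on the day side, against 44.7% of all genes, the exceptions being CG5793 and lute, and 2 of them, phu and CG10863, had an unadjusted p under 0.05. The log2 difference of phu between the sides was 1.33 (unadjusted p = 0.012) and that of CG10863 was 0.43 (unadjusted p = 0.044). Of the 10 late-night genes, 9 were higher on the night side, against 55.3% of all genes, the exception being CG42269, and 3 had an unadjusted p under 0.05. These were CG13631 with a log2 difference of -0.52 (unadjusted p = 0.0021), Cyp4d21 with -0.71 (unadjusted p = 0.0087) and CG32647 with -0.84 (unadjusted p = 0.033). TotA and Acsx3 had log2 differences of 0.60 and -0.29 between the sides, with unadjusted p values of 0.12 and 0.32. Over all genes at an unadjusted p under 0.05 in the first comparison, 122 of the 192 late-day genes (63.5%) and 137 of the 197 late-night genes (69.5%) kept their direction between the neighbouring times.

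Across the 12 times, with CPM scaled over all 24 libraries, the mean of TotA was between 85.1 and 127 CPM at every time from 0 to 12 h and from 24 to 32 h, and between 33.4 and 46.2 CPM at the other times. Acsx3 had its lowest mean at 12 h, 28.7 CPM, and its highest at 20 h, 101 CPM, and on the second day its lowest mean was 39.1 CPM at 32 h and its highest 95.6 CPM at 44 h. At 16 h and 40 h, the middle of the subjective night, Acsx3 had 34.7 and 50.5 CPM, below its late-night means. Cyp4d21 by contrast was already high at 16 h and 40 h, with means of 40.2 and 39.7 CPM, against 16.7 and 13.5 CPM at 8 h and 32 h. Achl had means of 0.952 CPM at 12 h and 0.784 CPM at 32 h, the lowest of the series, and 13.1 and 15.8 CPM at 16 h and 40 h.

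**Figure D3:**
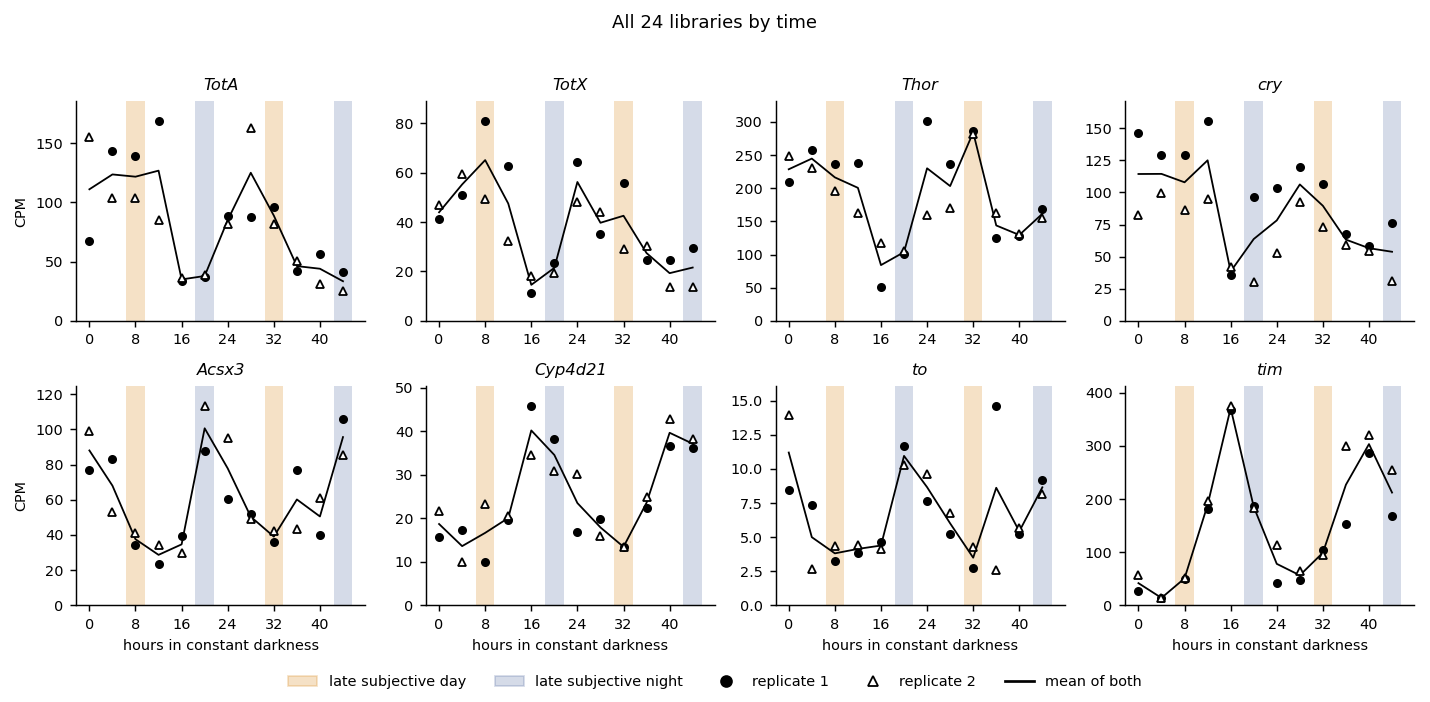
CPM (y axis, from 0) of 8 genes over hours in DD (x axis), with circles for replicate 1, triangles for replicate 2, a line through the mean of both, orange bands at 8 h and 32 h (late subjective day) and blue bands at 20 h and 44 h (late subjective night). TotA, TotX, Thor and cry lie higher in the orange than in the blue bands, and Acsx3, Cyp4d21, to and tim lie lower.

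The core clock list held 6 genes with an identifier, and 0 passed. In late day tim was low, with 52.5, 53.3, 111 and 101 CPM, against 196, 196, 175 and 272 CPM in late-night libraries. The groups of tim did not overlap, with a log2 difference of -1.39 ± 0.33 (SE), an unadjusted p of 0.0019 and an adjusted p of 0.773. The highest means of tim came at 16 h and 40 h, 371 and 303 CPM, and the lowest at 4 h, 14.2 CPM, which is the phase known for this gene. The blue-light receptor gene cry had 135, 89.8, 113 and 78.5 CPM in late-day libraries, against 101, 32.7, 79.0 and 33.2 CPM in late-night libraries. It was higher in late day in 4 of 4 matched pairs but overlapped, as replicate 1 was higher than replicate 2 in both phases, with a log2 difference of 0.90 ± 0.23 (SE), an unadjusted p of 0.0032 and an adjusted p of 0.923. By day, the log2 differences of cry were 0.42 and 0.52 in replicate 1 and 1.46 and 1.24 in replicate 2. The edgeR test between the replicates gave 0.89, replicate 2 minus replicate 1 (unadjusted p = 0.021, adjusted p = 0.870). Pdp1 had 25.5, 27.98, 47.8 and 69.7 CPM in late-day libraries and 50.6, 79.3, 47.6 and 164 CPM in late-night libraries, an unadjusted p of 0.059.

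The other clock genes had no p under 0.05 over both days. The repressor gene per had 24.1, 15.3, 34.9 and 25.5 CPM in late-day libraries and 40.7, 25.1, 23.2 and 24.4 CPM in late-night libraries, and vri had 35.9, 19.7, 39.5 and 36.1 CPM and 67.8, 61.9, 30.0 and 31.5 CPM. In both genes late night was higher on the first day and late day was higher on the second, in both replicates. The test of that difference between the days gave a log2 value, second day minus first, of 1.05 for per (unadjusted p = 0.030) and 1.54 for vri (unadjusted p = 0.0074), each with an adjusted p of 0.816. For tim it was 0.83 with an unadjusted p of 0.056, and its late-day values were lower on the first day than on the second in both replicates. Clk had 6.93, 17.3, 10.6 and 12.7 CPM in late-day libraries and 7.14, 17.8, 11.2 and 16.8 CPM in late-night libraries, a log2 difference of -0.13 ± 0.23 (SE) and an unadjusted p of 0.57. Over all genes the difference between the phases itself differed between the days for 0 genes (0%) and between the replicates for 0 genes (0%), with 344 (3.66%) and 313 (3.33%) at an unadjusted p under 0.05.

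A list of clock output genes and relatives of takeout, partly the study's own category made on these samples, had 12 members tested, of which 2 were higher in late day and 5 in late night at an unadjusted p under 0.05, against 6.58% and 6.63% of genes with a symbol and 2.04% and 2.1% of all genes. Besides Acsx3, which is no relative of takeout, and to, the late-night members were the juvenile hormone binding protein family genes Jhbp13, CG7079 and CG31189. Jhbp13 had 107, 211, 79.9 and 194 CPM in late-day libraries, against 222, 228, 235 and 243 CPM in late-night libraries. Late-night libraries of Jhbp13 were alike and those of late day were split by replicate, with replicate 2 the higher. A relative, Jhbp11, ran the other way, with 7.30, 5.39, 5.25 and 7.14 CPM in late-day libraries, against 4.25, 4.84, 2.68 and 2.90 CPM in late-night libraries, as did Slob, which encodes a binding partner of a potassium channel, with 51.3, 53.3, 89.2 and 114 CPM, against 39.8, 58.1, 28.9 and 55.3 CPM. The list's median log2 difference was -0.30.

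Thor, the 4E-BP repressor of cap-dependent translation under the control of TOR, had 248, 203, 305 and 304 CPM in late-day libraries, against 106, 113, 174 and 165 CPM in late-night libraries. The groups did not overlap, with a log2 difference of 0.93 ± 0.25 (SE), an unadjusted p of 0.0040 and an adjusted p of 0.956. Tor itself had 17.0, 19.4, 18.9 and 25.1 CPM in late-day libraries and 32.5, 10.4, 11.3 and 13.7 CPM in late-night libraries.

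Most genes of mitochondria and of ribosomes that could be named had a higher mean in late night, although their summed levels overlapped between the phases. The lists hold 73 mitochondrial ribosomal, 95 respiratory chain and 93 cytosolic ribosomal protein genes, of which 13, 21 and 15 had a symbol here. All 13 mitochondrial ribosomal protein genes with a symbol had a lower mean in late day, with a median log2 difference of -0.35. Of them 4 had an unadjusted p under 0.05, against 2.1% of all genes and 6.63% of genes with a symbol. mRpS35 had 38.7, 40.7, 45.6 and 52.4 CPM in late-day libraries, against 60.6, 67.3, 63.5 and 63.8 CPM in late-night libraries. Its groups were the only ones of the 13 without overlap, which is near the 7.64% of genes with a symbol whose groups do not overlap. Of 21 nuclear genes of the respiratory chain 19 were lower in late day, with a median of -0.29, and of 15 cytosolic ribosomal protein genes 13 were, with a median of -0.26, but 0 genes of either list reached an unadjusted p under 0.05. Late night was higher on average for 50.9% of all genes. Without the 32 h and 44 h libraries of replicate 2 the counts were 13 of 13, 18 of 21 and 14 of 15, and in the library totals without TMM scaling, which moved the median of all genes to 0.14, they were 11 of 13, 17 of 21 and 13 of 15. On the second day alone, 10 of 13, 19 of 21 and 4 of 15 were lower in late day, so the lean of cytosolic ribosomal protein genes was not seen there. Summed, the cytosolic genes had 52731, 66281, 58084 and 129501 CPM in late-day libraries and 88771, 112764, 70255 and 81864 CPM in late-night libraries. The respiratory chain genes summed to 7555 to 8056 CPM and 6664 to 10240 CPM, lowest in the 44 h library of replicate 2. Mitochondrial ribosomal protein genes summed to 306 to 408 CPM and 362 to 478 CPM.

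Of 23 listed genes of the unfolded protein response 8 had a symbol here. They leaned to late day, with 7 of 8 higher there and a median log2 difference of 0.43. Sil1, a nucleotide exchange factor for the chaperone BiP, had 4.49, 4.95, 4.18 and 5.18 CPM in late-day libraries, against 3.52, 1.79, 1.72 and 0.579 CPM in late-night libraries. Its groups did not overlap, and meigo, with 23.4, 29.4, 17.3 and 22.1 CPM and 18.8, 13.6, 13.7 and 17.0 CPM, had groups that did. Both had an unadjusted p of 0.03, which makes 2 of 8 under 0.05, against 6.58% of genes with a symbol and 2.04% of all genes higher in late day. None of 14 Toll and IMD pathway genes, 6 Bomanins and related peptides or 2 antimicrobial peptide genes had an unadjusted p under 0.05. In either direction the share was 13.2% of genes with a symbol. Listericin, an antibacterial protein gene which is in none of these lists and is named with its values already known, had 248, 365, 223 and 339 CPM in late-day libraries, against 374, 567, 450 and 409 CPM in late-night libraries. Its groups did not overlap, with a log2 difference of -0.64 ± 0.18 (SE) and an unadjusted p of 0.0052. The antimicrobial peptide gene Mtk had 1325, 1015, 622 and 1654 CPM in late-day libraries and 275, 3236, 2486 and 714 CPM in late-night libraries, a spread within late night that was wider than any difference between the phases.

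Cytochrome P450 enzymes oxidize lipids, hormones and toxins, and 28 of the 87 genes listed had a symbol here. Of the 28, 4 were higher in late day and 2 in late night at an unadjusted p under 0.05, with a median log2 difference of 0.17. Genes with a symbol had 6.58% and 6.63% at that threshold and all genes 2.04% and 2.1%. Cyp6t1 had 36.3, 34.2, 34.6 and 43.6 CPM in late-day libraries, against 27.7, 23.1, 17.0 and 19.0 CPM in late-night libraries. Cyp6g1, known for resistance to insecticides, had 128, 105, 123 and 110 CPM in late-day libraries, against 98.6, 91.1, 93.4 and 42.5 CPM in late-night libraries. Neither gene's groups overlapped, in contrast to Cyp4p1, Cyp9b2 and the late-night gene Cyp18a1, an ecdysteroid hydroxylase gene. The glutathione S-transferase genes GstD3, GstD9 and GstE9 (of 8) and the UDP-glycosyltransferase genes Ugt37A3 and Ugt35C1 (of 7) were higher in late day at an unadjusted p under 0.05, against 6.58% of genes with a symbol and 2.04% of all genes. Ugt37A3 had 9.90, 4.95, 8.83 and 2.48 CPM in late-day libraries, against 1.68, 2.33, 0.456 and 0.463 CPM in late-night libraries. Lipid genes were represented by bgm, a synthetase for very long chain acyl-CoA, with 513, 399, 696 and 441 CPM in late-day libraries, against 345, 278, 574 and 164 CPM in late-night libraries, and 7 of 9 genes of that list were higher in late day.

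The eye pigment transporter gene scarlet (st) had 7.41, 8.43, 6.94 and 8.94 CPM in late-day libraries, against 4.98, 1.44, 4.30 and 3.94 CPM in late-night libraries, without overlap and with a log2 difference of 1.14 ± 0.39 (SE). It was the only one of 7 genes of monoamine, histamine and tyrosine metabolism with an unadjusted p under 0.05, against 13.2% of genes with a symbol and 4.14% of all genes in either direction. Cpr72Ec, a cuticle protein gene of the corneal lens, had 29.7, 78.2, 21.7 and 107 CPM in late-day libraries, against 41.7, 86.1, 42.8 and 175 CPM in late-night libraries, with replicate 2 above replicate 1 throughout. None of 5 proteasome genes, 4 genes of trehalose and glycolysis, 2 translation initiation factor genes or 2 sex-biased and dosage RNAs had an unadjusted p under 0.05, nor did Hsp83 or Smg6.

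**Figure D4:**
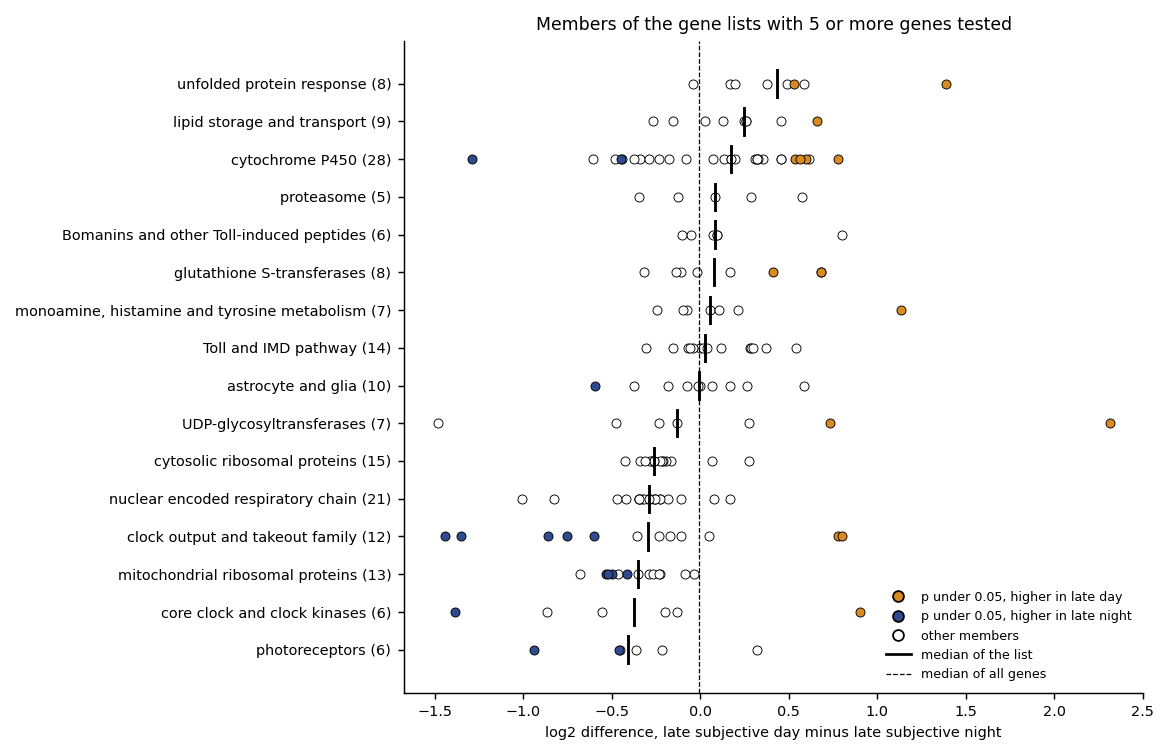
Log2 difference of each gene, late subjective day minus late subjective night (x axis), for the lists with 5 or more genes tested (rows, number of genes in parentheses), with bars at the list medians, a dashed line at the median of all genes and colored points for an unadjusted p under 0.05. All 13 mitochondrial ribosomal protein genes with a symbol (of 73 listed) lie left of 0, and 7 of 8 unfolded protein response genes with a symbol (of 23 listed) lie right of 0.

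Transcripts of other cell types were measured in the same libraries. Photoreceptor genes had a summed level of 1169 to 1647 CPM in late-day libraries and 1468 to 2124 CPM in late-night libraries, and 5 of the 6 tested were lower in late day. Rh6, a rhodopsin gene of R8 photoreceptors, had 187, 310.0, 201 and 471 CPM in late-day libraries, against 455, 527, 331 and 897 CPM in late-night libraries, and Rh5 had 42.5, 50.2, 45.6 and 59.7 CPM, against 79.5, 67.5, 67.8 and 57.0 CPM. Both had an unadjusted p under 0.05, which makes 2 of 6, against 6.63% of genes with a symbol and 2.1% of all genes higher in late night. The part of photoreceptor RNA in the other late-night differences was not tested. The astrocyte and glia list, with 10 genes tested, summed to 439 to 514 CPM in late-day libraries and 390 to 583 CPM in late-night libraries, with a median log2 difference of -0.01. Its only member at an unadjusted p under 0.05 was Inx2, a gap junction gene, with 9.48, 9.82, 8.47 and 10.7 CPM in late-day libraries and 10.9, 20.1, 9.16 and 22.2 CPM in late-night libraries. Of genes with a symbol 13.2% reached that threshold in either direction, and of all genes 4.14%. The only neuronal gene with an identifier, Frq1, had 1.30, 0.782, 1.93 and 8.64 CPM in late-day libraries and 4.00, 9.51, 3.80 and 21.2 CPM in late-night libraries. For hemocytes and muscle 1 gene each could be read, NimC1 with 1.94 to 4.66 and 1.44 to 2.92 CPM and Tm1 with 49.7 to 74.5 and 50.3 to 74.8 CPM, and both overlapped between the phases. The 3 fat body and oenocyte genes summed to 98.04 to 133 CPM in late-day libraries and 72.5 to 111 CPM in late-night libraries.

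Transcripts known from male reproductive organs, gut and oenocytes separated single libraries rather than phases. The sperm leucyl aminopeptidase gene S-Lap1 had 116, 112, 177 and 0.301 CPM in late-day libraries and 12.9, 3.41, 76.6 and 277 CPM in late-night libraries. S-Lap4, loopin-1, Mst98Ca, EbpII and Sfp87B, also of testis or seminal fluid, and CG12374 were likewise lowest in that library, at 0 or 0.0751 CPM, and next lowest in the 20 h libraries. Cyp4g1, the oenocyte enzyme of cuticular hydrocarbon synthesis, had 104, 125, 85.2 and 1.80 CPM in late-day libraries and 8.98, 10.2, 48.1 and 526 CPM in late-night libraries. Between the phases these genes had unadjusted p values of 0.36 to 0.92, and the part of such RNA in the differences between the phases was not tested. With the first principal component as a covariate, an alternative added after the data were seen, 4 genes passed: TotA, Acsx3, CG17108 and FBgn0085819. Compared on the first day alone, 8 h with 20 h, 909 genes passed (731 higher at 8 h and 178 higher at 20 h), and the 731 had a median log2 difference of -3.70 on the second day, 0.84 in replicate 1 and -8.35 in replicate 2. Across the 9392 genes, which are not independent replicates, the log2 differences of the first and second day correlated at r = -0.75 (Spearman's rho -0.15), and those of replicates 1 and 2 at r = -0.39 (rho -0.18). The part of the 32 h library of replicate 2 in these correlations was not tested. Of the 731 genes higher at 8 h, 40 kept their direction on the second day, and of the 178 higher at 20 h, whose median there was 0.02, 86 did. On the second day alone 0 genes passed, with 75 at an unadjusted p under 0.05. The first-day calls also held tim, cry, Thor, TotA, TotX, Akr1B, Acsx3 and Cyp4d21.

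**Figure D5:**
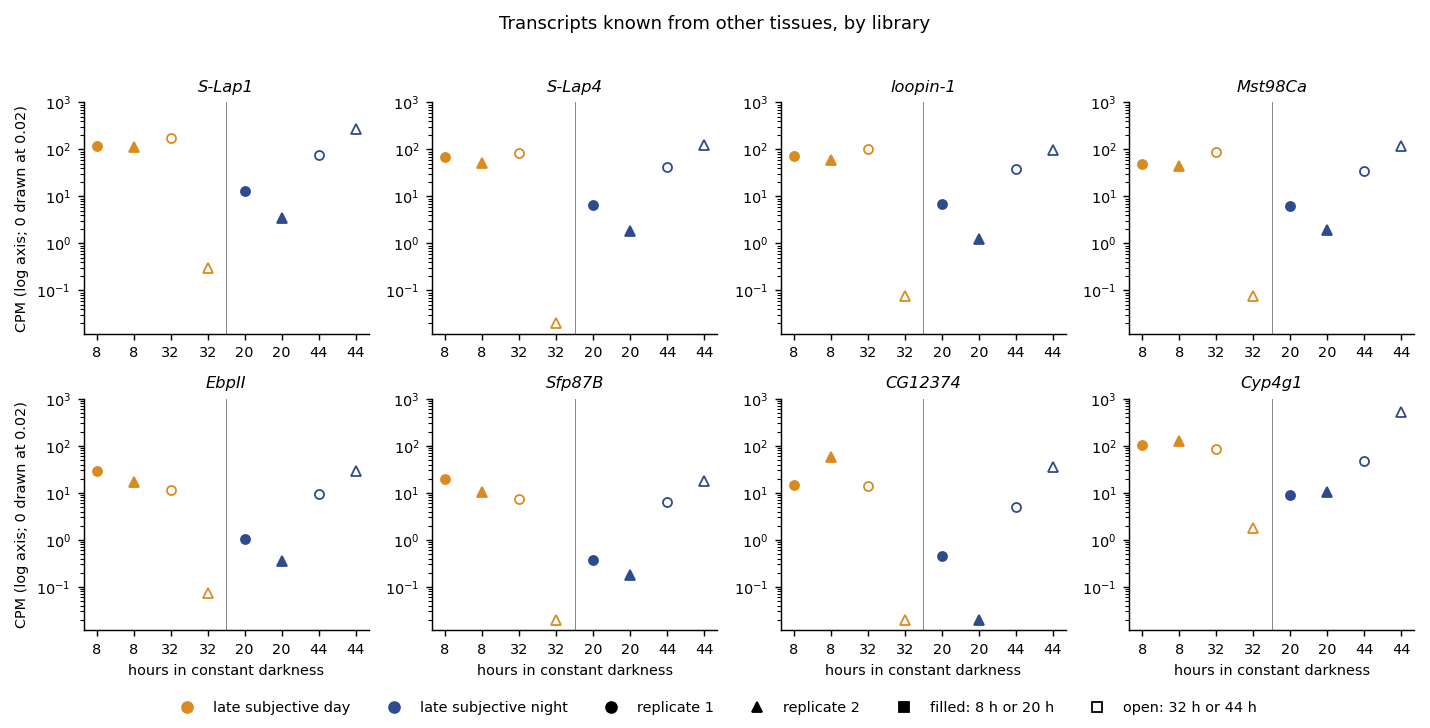
CPM on a log axis (values of 0 drawn at 0.02) of 8 transcripts known from testis, seminal fluid, gut or oenocytes in each library (x axis, hours in DD), with late subjective day left of the line and late subjective night right of it, circles for replicate 1 and triangles for replicate 2. The 32 h library of replicate 2 is lowest in every panel, tied at 0 with the 20 h library of replicate 2 for CG12374, and both 20 h libraries lie below the 8 h and 44 h libraries.

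Some of these genes overlap others on the chromosome, and whether reads were counted by strand is not stated. Among them are TotX (with Grik), CG32647 (Agpat1), Nepl18 (CG33203), CG5793 (Obp93a), lute (Brf), CG10863 (an antisense RNA), cry (vib), per (dyw) and tim and vri (long noncoding RNAs). Gabat (Tom20), Slob (Myo28B1), Jhbp13 (an antisense RNA), CG31189 (CG12278), Cyp6t1 (a long noncoding RNA), Cyp6g1 (Cyp6g2), Cyp4p1 (hig), GstE9 (imd), st (CG43373) and Esyt2 (small RNA genes) also overlap a partner. The values of all of these may include reads of the partner.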

How the data were processed

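TRAP RNA of astrocytes was sequenced in 24 libraries (12 times, 2 biological replicates), each in 2 technical data sets. The authors aligned the reads to Release 6 with TopHat2 2.0.9 and Bowtie, and counted them per gene with HTSeq 0.6.1 (versions from the submitters' processing notes). The deposited values are raw counts, with no filter or normalization. Counting mode and strand setting are not given in the sources used here.

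Data sets 1 and 2, and 3 and 4, were summed per library. The threshold of 20 counts is the study's, but here it was set on the mean of the summed counts over all 24 libraries. It left 9392 genes for testing, more than the study reported as detected. The fit used edgeR 4.0.16 in R 4.3.3 (TMM, glmQLFit, glmQLFTest) on 8 libraries, with the replicate as a block and Benjamini-Hochberg adjustment over all genes tested. SEs are from limma 3.58.1 on log2 CPM with a prior count of 0.5. Counts were summed in Python 3.11.15, and alternatives used DESeq2 1.42.0. The edgeR fit was also run on counts simulated without replicate effects. That run checked the code only, and its outcome is not used here.

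The comparison, the gene lists and the named genes were chosen with earlier results of these data known. Named genes are those that passed, filled to 10 per direction by the smallest unadjusted p, every core clock gene tested, and in each other list the genes that passed or else the 2 of smallest p. Genes beyond that rule (Achl, members of lists beyond the 2 of smallest p, and transcripts of other tissues) were chosen after their values were seen. Symbols came from the study's supplementary tables and the RefSeq Release 6 gene table, which also gave the coordinates. Promoter sequences were not analysed here. No alignment tallies entered library sizes. Precision is limited by the spread between 4 libraries per phase. For genes with few counts, such as CG42269 and CG9757 (means of 22.8 and 46.4 counts over the 24 libraries), depth limits it too. The parts of spread and depth were not tested. The replicates came from independent crosses, and p-values measure the spread between these libraries.

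Alternatives were no block, other scalings and count filters, all 24 libraries, single data sets, single days, single replicates and each library left out. After the data were seen, 4 more were added: the first principal component as a covariate, limma voom with library weights, robust dispersions, and the fit without the 32 h and 44 h libraries of replicate 2.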

Additional observations from a re-analysis of the deposited data

Results flagged for a closer look

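Over the 73 named genes, 146 groups of 4 libraries were examined for a library far from the other 3, and 7 were found, where chance alone gives about 1 in 20 groups. In late day it was Frq1 at 32 h in replicate 2 (8.64 CPM, others 0.782 to 1.93 CPM). In late night the 20 h library of replicate 1 stood apart for per (40.7 CPM, others 23.2 to 25.1 CPM), Tor (32.5 CPM, others 10.4 to 13.7 CPM) and CG3376 (62.4 CPM, others 74.3 to 75.5 CPM). The 20 h library of replicate 2 stood apart for CG13631 (284 CPM, others 189 to 203 CPM). The 44 h library of replicate 2 stood apart for Jon66Ci, a gut protease gene (7.53 CPM, others 0.179 to 0.456 CPM), and Tret1-1, a trehalose transporter gene (121 CPM, others 185 to 188 CPM).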

How the results depend on the processing

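The count of genes that passed was 0 with no replicate block, with library totals, DESeq2 size factors or quantile normalization and limma, with every other count filter but one, in the fit on all 24 libraries, in either technical data set, in either biological replicate alone, on the second day alone and with robust dispersions. It was 0 in each fit that left out 1 library, where the smallest adjusted p was 0.0657 to 0.995. It was 50 in DESeq2, 3 with a mean of at least 100 counts (TotA, Acsx3 and CG34134), 909 on the first day alone, 4 with the first principal component as a covariate, 16 in limma voom with library weights and 1 without the 32 h and 44 h libraries of replicate 2 (CG17108). The last 3 settings were chosen after the data were seen. Members of the gene lists that passed numbered 0 in the first analysis and 10, 2, 33, 2 and 4 in the first 5 of these settings, and 0 in each fit that left out 1 library. The causes were not tested. DESeq2 called 15 and limma voom 10 of the 20 genes of lowest p. DESeq2 found 1 gene whose difference differed between the days and 1 between the replicates, against 0 and 0 in edgeR. The neighbouring times gave 0 in each of their alternatives. Library totals without TMM moved the median log2 difference to 0.14 and split the genes at an unadjusted p under 0.05 into 335 higher in late day and 72 higher in late night, against 192 and 197. Without the replicate block these were 97 and 124. The block is a replicate number shared across times, and deviations of same-numbered libraries correlated at -0.25 to 0.49 between times, so the numbers are not shown to pair the libraries.

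Of 2033 values of the 73 named genes under alternatives, 1921 kept direction and side of the threshold, 61 passed it and 51 turned direction. In replicate 1 alone the log2 differences that turned were GLaz -0.0035, NimC1 -0.14, Drsl5 -0.13, Tor -0.33, CG33493 -0.0211, Smg6 -0.24 and epsilonTry 0.55. In replicate 2 alone they were Spn27A 0.056, Prosalpha3 0.12, eIF3d1 0.038 and Tm1 0.14. On the first day alone they were Mtk 0.30, Tor -0.0926, Smg6 -0.072 and epsilonTry 4.62, and on the second vri 0.22, Drsl5 -0.12, per 0.25, eIF3d1 0.10 and Tm1 0.075. With library totals they were Prosalpha3 0.020, eIF3d1 0.022, Clk 0.032, Tm1 0.14 and epsilonTry 0.075, and with quantile normalization Mtk 0.12 and Tm1 0.039. In the first data sets they were Smg6 -0.014 and Tm1 0.049, and in the second epsilonTry 0.048. With voom they were per 0.013, CG33493 -0.022, Smg6 -0.052, Tm1 0.0061 and epsilonTry 1.05, and without the 2 libraries of replicate 2 CG33493 -0.086, Smg6 -0.11 and epsilonTry 1.52. Leaving out each library gave -0.063 to 0.25 for CG33493, -0.28 to 0.0072 for Clk, -0.98 to 1.47 for epsilonTry, -0.81 to 0.056 for lncRNA:roX1, -0.89 to 0.27 for Mtk, -0.075 to 0.11 for Smg6 and -0.13 to 0.11 for Tm1.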
